A study of Mus musculus with 6 samples.

Results

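AP-1 is a family of transcription factors that bind DNA as pairs through a basic region and a leucine zipper. The 10 genes described here were Fos, Fosb, Fosl1, Fosl2, Jun, Junb, Jund, Atf3, Batf and Maff, out of 14345 genes tested on the array. They were chosen by name as members of the family, by a rule that used no measured value. Every transcript probe whose RefSeq accession mapped to one of these symbols was taken, which gave 14 probes, and 13 of them were well above background on at least 3 arrays. All 10 genes passed this filter and were well above background on all 6 arrays, and none of their spots was saturated.

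The cells were 2D-MAOs, which are airway epithelial cells from the lung of C57BL/6 mice that were grown as organoids and then spread as a flat culture. The study asked how TGF-β1, a secreted growth factor, alters gene expression in these cells. The control group was 3 cultures without TGF-β1, and the TGF-β1 group was 3 cultures that received TGF-β1 from day 3, at a concentration that the microarray methods do not name. Both groups were kept in medium lacking noggin, an inhibitor of BMP signals, and A83-01, an inhibitor of TGF-β receptors, and all cultures were collected on day 7. The authors call the cultures of a group biological replicates, but whether they came from separate animals is not stated, so p-values measure only the spread between these cultures.

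Fos proteins pair with Jun proteins, whereas Jun proteins can also pair with one another. Fos, Fosb, Jun, Junb and Atf3 are immediate early genes, whose transcription starts within minutes of a growth factor or stress signal and usually fades within hours, and the proteins are activated by MAP kinases. In epithelia, AP-1 acts in proliferation, wound closure and the transcription of secreted proteases. TGF-β signals reach AP-1 through MAP kinases and through Smad proteins, which can bind Jun proteins and are known to activate transcription of Junb. TGF-β1 was first added on day 3 and RNA was taken on day 7, so the arrays hold no early time point.

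The sequence upstream of the start site was read for each gene because several AP-1 genes are known to be regulated by AP-1 and related factors. RefSeq on GRCm38.p6 gave 11 upstream sequences of 250 bases for 9 of the 10 genes, with 3 for Maff. Those of Jun, Junb and Fosb are shown because these genes had the highest TGF-β1 values relative to the control in the family, and one stretch of Maff is shown for comparison with Jun. Each is written 5′ to 3′ on the strand of the gene and ends just before the start site, except for the shorter stretch of Maff. Positions are counted from the start site, with -1 the last base before it. Capitals mark TGACATCA, the variant AP-1 site known from the Jun promoter.
Jun, chr4:95052223-95052472, minus strand: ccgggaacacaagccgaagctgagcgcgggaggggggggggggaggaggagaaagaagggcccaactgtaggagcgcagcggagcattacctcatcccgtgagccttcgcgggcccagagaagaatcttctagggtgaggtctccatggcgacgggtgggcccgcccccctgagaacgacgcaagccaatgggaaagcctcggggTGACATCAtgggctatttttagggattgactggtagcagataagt
Junb, chr8:84978749-84978998, minus strand: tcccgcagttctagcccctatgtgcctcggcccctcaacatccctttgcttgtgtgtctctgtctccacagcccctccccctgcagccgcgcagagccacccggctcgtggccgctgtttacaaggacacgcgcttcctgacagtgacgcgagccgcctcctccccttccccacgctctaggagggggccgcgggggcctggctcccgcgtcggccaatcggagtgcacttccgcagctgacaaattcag
Fosb, chr7:19310046-19310295, minus strand: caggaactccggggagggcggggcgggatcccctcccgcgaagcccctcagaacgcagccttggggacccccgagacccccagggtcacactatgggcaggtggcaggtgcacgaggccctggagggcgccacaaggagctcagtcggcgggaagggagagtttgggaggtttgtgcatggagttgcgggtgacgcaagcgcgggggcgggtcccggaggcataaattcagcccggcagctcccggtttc
Maff, chr15:79348341-79348380, plus strand: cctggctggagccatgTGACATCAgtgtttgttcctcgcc
TGACATCA lay at positions -45 to -38 in Jun and at the same positions in the third of the Maff sequences. On either strand it was found in 2.93% of the 32851 upstream sequences of the same length in RefSeq. The classical AP-1 site, TGANTCA, was in none of the 11 sequences and in 6.75% of all. The cAMP response element TGACGTCA, a site of the related Atf and Creb factors, was in 1 of the 11, at positions -29 to -22 of the second Maff sequence, and in 1.55% of all. The TATA box TATAAA was in 1 of the 11, at positions -33 to -28 of Fos, and in 12.4% of all. The CArG box, the site of serum response factor, was in none of the 11 and in 1.47% of all, and GTCTAGAC, a palindrome bound by Smad proteins, was in none and in 0.167%. Both strands were searched, none of the spelled patterns contains another, and an absent match says only that these letters are not in these windows. The upstream sequences of Jun, Junb and Fosb were 61.2%, 66.4% and 68.8% G or C, against a median of 52.4% over all.

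The 6 arrays lay on 1 slide with 1 scan time. The authors' 3 cultures of each group had 1 array each, and between 55.0% and 59.0% of probes per array were well above background. Of 15 airway epithelial markers, 13 were well above background on all 6 arrays. Among them were Epcam and Krt5, and Ager and Hopx of type I alveolar cells. Muc5ac of goblet cells and Sftpc of type II alveolar cells stood well above background on none. By staining, the authors found goblet cells and a predominance of caveolin-positive type I alveolar cells. Foxj1, which drives the ciliated cell programme, was the only epithelial marker called at an adjusted limma p under 0.05, higher by 1.47 (adjusted p 0.0024). Over all genes 1.63% were called higher. At an unadjusted limma p under 0.05, 5 of these markers were higher and 1 lower, beside 11.4% and 10.8% of all genes. Besides Foxj1 these were Krt14 (1.55), Krt5 (1.37), Scgb3a2 (1.05), Epcam (0.82) and Scgb1a1 (-2.27). Of 8 fibroblast markers, Pdgfra, Dcn and Thy1 were well above background on all 6 arrays, Col3a1, Pdgfrb and Lum on none, and Col1a1 and Col1a2 on the TGF-β1 arrays but on no control array. The summed normalized signal of the fibroblast markers was 576 to 648 on the control arrays and 708 to 2709 on the TGF-β1 arrays, lowest in TGF-β1 replicate 3, and that of the epithelial markers was 268010 to 282620 against 283270 to 427290. Of 5 endothelial markers only Pecam1 was above background on all 6 arrays, with sums of 79.7 to 94.2 and 86.5 to 100.5. Of 7 leukocyte markers 4, Cd68, Itgam, Csf1r and Cd3e, were above background on all 6 arrays, and the defining Ptprc and Adgre1 on none. Cd68 differed by 0.90 and Itgam by 0.43, both with the groups apart, Csf1r by 0.010 and Cd3e by -0.24. The sums of the leukocyte markers were 10575 to 12289 and 13569 to 14758. The part of these markers in the AP-1 values was not tested, and in such a culture fewer cells of a type and less RNA per cell cannot be told apart.

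Signals are given as quantile-normalized log2 signal, and differences are TGF-β1 minus control on that scale. The brightness of a spot depends on its probe, so the genes are not ordered by level. No AP-1 gene passed the adjusted threshold in either direction, whereas 1.63% of all genes tested were called higher and 0.404% lower (limma, adjusted p under 0.05). At an unadjusted p under 0.05, Junb, Fosb and Jun were higher and Fosl1 was lower, which is 4 of 10 genes, beside 11.4% of all genes higher and 10.8% lower. The groups did not overlap for Junb and Fosb, which were higher, and Fosl1, which was lower, and over all genes this held for 12.9% higher and 13.5% lower. The median difference of the 10 genes was 0.11, against -0.03 over all genes, and their median size of difference was 0.14, against 0.21. The other 6 genes had differences between -0.12 and 0.15.

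**Figure D1:**
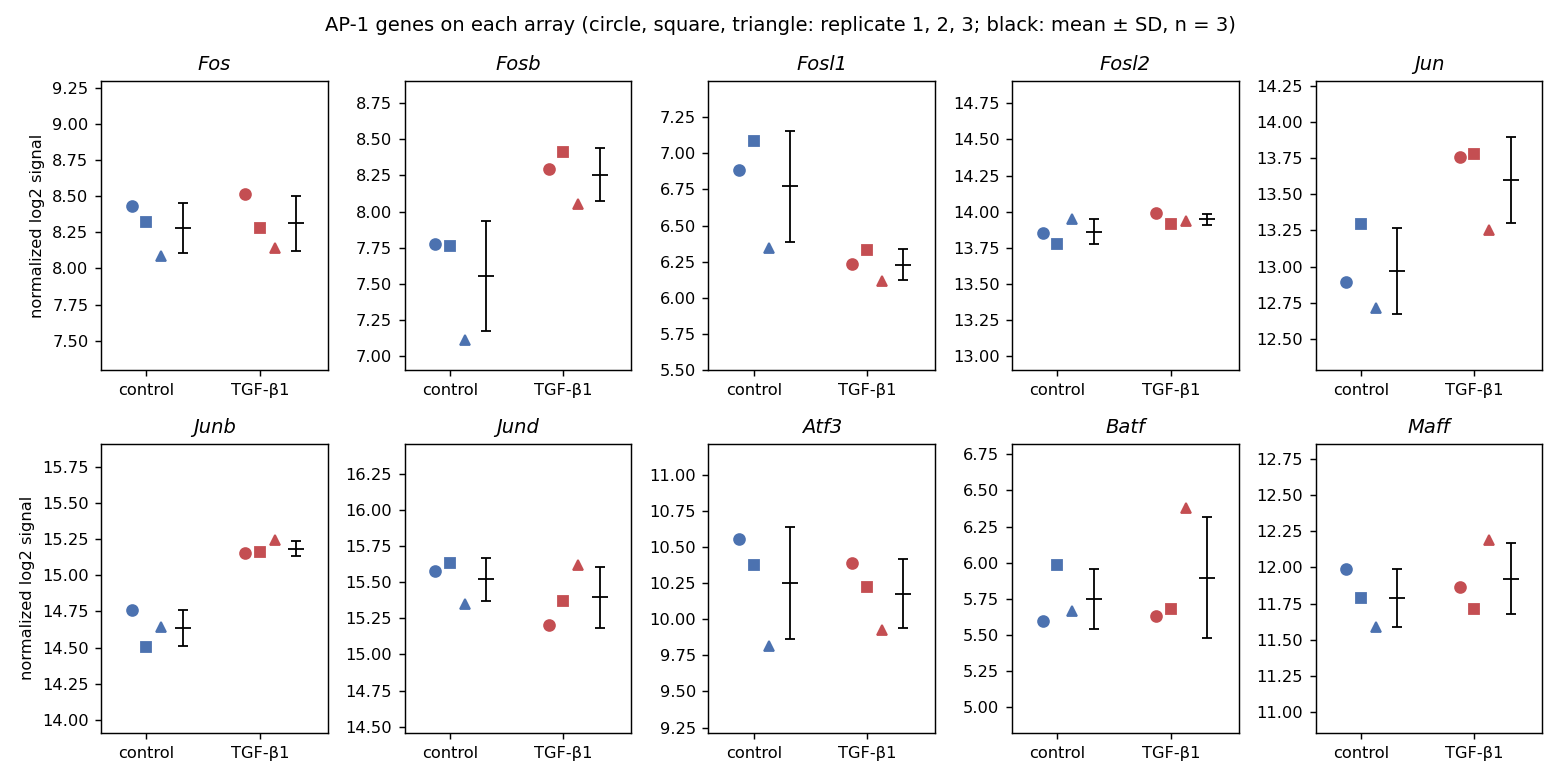
Quantile-normalized log2 signal of the 10 AP-1 genes on each array, in 1 panel a gene with a y axis of equal span, for control (blue) and TGF-β1 (red) cultures. Circle, square and triangle are replicates 1, 2 and 3, and black bars are mean ± SD (n = 3). The groups do not overlap in the panels of Fosb, Fosl1 and Junb, and in that of Fosl1 the gap is 0.01.

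Among the Jun genes, Junb had the smallest p of the family. JunB is a Jun protein that often restrains the growth-promoting activity of c-Jun. Its signal was 14.76, 14.51 and 14.64 on control arrays 1, 2 and 3, and 15.15, 15.16 and 15.24 on TGF-β1 arrays 1, 2 and 3. Every TGF-β1 array was brighter than every control array. The means were 14.64 ± 0.13 and 15.18 ± 0.05 (SD, n = 3), a difference of 0.55 (SE 0.11), or 1.46-fold, with a 95% interval of 0.29 to 0.81. The unadjusted p was 0.0017 and the adjusted p over all genes was 0.064 in limma, so the difference did not pass the threshold, for which the largest p called was 0.001. The exact permutation test gave a two-sided p of 0.10, the smallest that 3 against 3 arrays allow.

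The value of Junb rested on the brighter of its 2 probes and on the scaling. On the dimmer probe the signal was 8.87, 8.57 and 8.24 on the control arrays and 8.59, 8.43 and 8.86 on the TGF-β1 arrays. There the groups overlapped and the difference was 0.067 (SE 0.19, unadjusted limma p 0.74 in a fit of all 32460 probes, which also gave the values of the other second probes). With each array scaled to its 75th percentile in place of quantiles, the brighter probe differed by 0.28 (adjusted p 0.26). The groups were then only just apart, with 14.891 on control array 1 and 14.9 on TGF-β1 array 1. The median of all genes moved by -0.06. The call of Junb was gained without TGF-β1 replicate 3, with a difference of 0.52 and an adjusted p of 0.039, although 9.08% of all genes were then called higher and 6.27% lower.

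Jun encodes c-Jun, the Jun protein with the strongest activity as an activator. Its signal was 12.90, 13.29 and 12.71 on the control arrays and 13.76, 13.78 and 13.25 on the TGF-β1 arrays. TGF-β1 replicate 3 was below control replicate 2, so the groups overlapped, whereas the other pair of TGF-β1 arrays lay above all controls. The means were 12.97 ± 0.30 and 13.60 ± 0.30 (SD, n = 3). The difference was 0.63 (SE 0.21), or 1.55-fold, with an adjusted p of 0.16 in limma and a 95% interval of 0.14 to 1.12. TGF-β1 replicate 3 was 0.52 below the mean of the other pair of TGF-β1 arrays, and without it the difference was 0.80 (adjusted p 0.040).

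Jund encodes JunD, the Jun protein that resting cells also hold. Its signal was 15.57, 15.63 and 15.35 on the control arrays and 15.20, 15.37 and 15.62 on the TGF-β1 arrays. The 2 groups overlapped, and TGF-β1 replicate 3 was the brightest of its group. The difference was -0.12 (SE 0.15, adjusted p 0.63), and its 95% interval ran from -0.47 to 0.22. It was -0.40 under 75th percentile scaling, -0.27 with array weights and between -0.23 and -0.028 with 1 array left out, and none of these passed the adjusted threshold. The second probe of Jund gave -0.10 (SE 0.15, unadjusted limma p 0.54). The values differed in sign between the slide rows, with -0.32 for replicates 1 and 2 and 0.26 for replicate 3, which lay in another row of the slide in both groups.

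**Figure D2:**
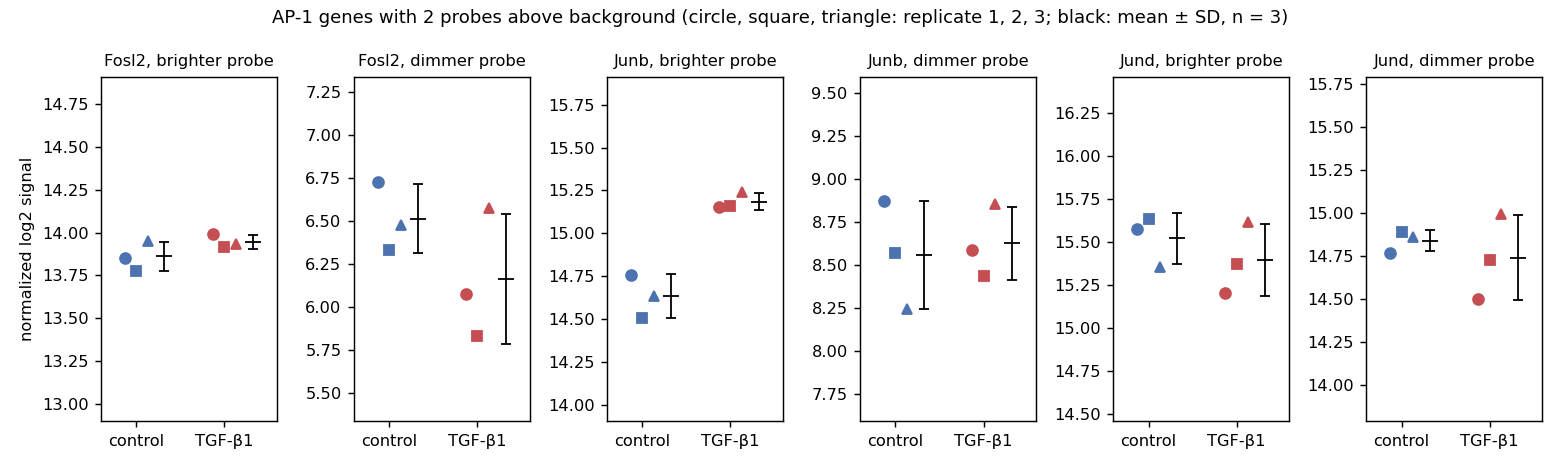
Quantile-normalized log2 signal on each array of the 2 probes above background for Fosl2, Junb and Jund, for control (blue) and TGF-β1 (red) cultures, with y axes of equal span. Circle, square and triangle are replicates 1, 2 and 3, and black bars are mean ± SD (n = 3). The groups are apart on the brighter Junb probe and overlap on its dimmer probe.

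Among the Fos genes, Fosb had the largest difference of the 10 genes. FosB pairs with Jun proteins, and a shortened form of it is known to last in cells after repeated stimuli. Its signal was 7.78, 7.76 and 7.11 on the control arrays and 8.29, 8.42 and 8.05 on the TGF-β1 arrays. The groups did not overlap, and control replicate 3 was 0.65 below the next control array. The means were 7.55 ± 0.38 and 8.25 ± 0.18 (SD, n = 3). The difference was 0.70 (SE 0.21), or 1.63-fold, with an adjusted p of 0.14 in limma, and 8.03% of all genes differed by more. With slide row as a block the same difference had an adjusted p of 0.048 and passed the threshold, as 2.02% of all genes did in that direction. Its 95% interval, 0.21 to 1.20, included 2-fold. The second Fosb probe was not well above background on any of the 6 arrays.

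Fosl1 encodes Fra-1, a Fos protein that lacks a strong activation domain and is often high in migrating epithelial cells. Its signal was 6.89, 7.08 and 6.34 on the control arrays and 6.24, 6.33 and 6.12 on the TGF-β1 arrays. The groups were apart by only 0.01, between control replicate 3 and TGF-β1 replicate 2. The means were 6.77 ± 0.38 and 6.23 ± 0.11 (SD, n = 3). The difference was -0.54 (SE 0.20), with an adjusted p of 0.19 in limma and a 95% interval of -1.01 to -0.07. The spots were dim, at 3.45 to 5.29 times their local background. Under 75th percentile scaling the difference was -0.40 and the groups overlapped. With normexp background it was -0.33, and with array weights -0.61.

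Fosl2 encodes Fra-2, another Fos protein without a strong activation domain. Its signal was 13.85, 13.78 and 13.95 on the control arrays and 13.99, 13.91 and 13.94 on the TGF-β1 arrays. The groups overlapped and the difference was 0.09 (SE 0.10, adjusted p 0.63). The sign depended on the probe and the scaling. The dimmer probe gave 6.73, 6.33 and 6.48 on the control arrays against 6.08, 5.83 and 6.58 on the TGF-β1 arrays, a difference of -0.35 (SE 0.21, unadjusted limma p 0.14). The brighter probe gave -0.12 under 75th percentile scaling.

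Fos itself encodes c-Fos, the prototype of the immediate early genes. Its signal was 8.43, 8.32 and 8.09 on the control arrays and 8.51, 8.28 and 8.14 on the TGF-β1 arrays. The arrays of the groups were interleaved, and replicate 3 was the lowest of each. The difference was 0.030 (SE 0.15, adjusted p 0.91). Its 95% interval, -0.32 to 0.38, left out a change of 2-fold in either direction.

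The remaining genes encode partners outside the Fos and Jun families. Atf3 is a stress-induced factor that pairs with Jun proteins and often represses. Its signal was 10.56, 10.38 and 9.81 on the control arrays and 10.39, 10.22 and 9.92 on the TGF-β1 arrays. The groups overlapped and the difference was -0.07 (SE 0.22, adjusted p 0.87, 95% interval -0.60 to 0.45). Replicate 3, which lay in another slide row than replicates 1 and 2, was the lowest array of both groups for Atf3, Fos, Fosb, Fosl1 and Jun.

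Batf and Maff encode small proteins that lack an activation domain. Batf pairs with Jun proteins and is known mostly from lymphocytes. Its signal was 5.60, 5.98 and 5.67 on the control arrays and 5.63, 5.68 and 6.38 on the TGF-β1 arrays, 2.44 to 3.22 times the local background. TGF-β1 replicate 3 was the brightest of the 6 arrays, and the other TGF-β1 arrays lay within the control range. The difference was 0.15 (SE 0.23, adjusted p 0.71), and without TGF-β1 replicate 3 it was -0.09.

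MafF pairs with factors of oxidative stress such as Nrf2. Maff was at 11.99, 11.79 and 11.59 on the control arrays and at 11.86, 11.71 and 12.19 on the TGF-β1 arrays. As with Batf, TGF-β1 replicate 3 was the brightest of all 6 arrays. The difference was 0.13 (SE 0.17, adjusted p 0.65), and without that array it was -0.00076. Within the slide rows, Maff differed by -0.10 in replicates 1 and 2 and by 0.60 in replicate 3, and Batf by -0.13 and 0.71. Junb, Fosb, Jun and Fosl1 kept their sign in both rows, with 0.52 and 0.60 for Junb, 0.58 and 0.94 for Fosb, 0.67 and 0.54 for Jun and -0.70 and -0.23 for Fosl1.

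The precision differed between the genes. The 95% interval lay within 2-fold in both directions for 7 of 10 genes, and it did not for Fosb, Jun and Fosl1. The median SE was 0.18 for the 10 genes and 0.15 over all genes. TGF-β1 replicate 3 stood below the mean of the other TGF-β1 arrays by 0.52 for Jun and 0.38 for Atf3, and above it by 0.72 for Batf, 0.40 for Maff and 0.33 for Jund. For Junb it was 0.09 above, and for Fosl2 0.017 below. When limma weighted arrays by their agreement, TGF-β1 replicate 3 had the lowest weight, and Junb, Jun and Fosb were called higher and Fosl1 lower. In that setting 34.7% of all genes were called, so the 4 calls are read against that share.

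**Figure D3:**
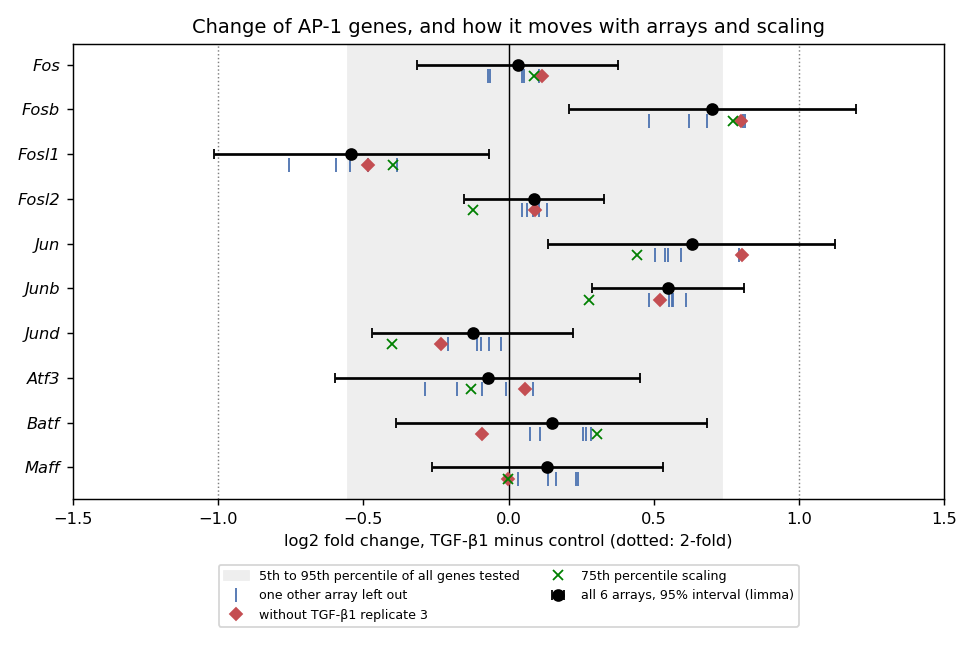
Log2 fold change (TGF-β1 minus control, x axis) of the 10 AP-1 genes, with all 6 arrays and the 95% interval of limma (black), without TGF-β1 replicate 3 (red diamonds), without each other array in turn (blue ticks) and under 75th percentile scaling (green crosses). The grey band holds the 5th to 95th percentile of all genes tested, -0.55 to 0.73, and all 10 black points lie in it.

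The genes whose profile over the 6 arrays was most like that of Junb were sought among 13516 other genes above background on all 6 arrays, after each gene was centred on its own mean. The nearest was Nog, which encodes noggin, the BMP inhibitor that was left out of the medium of both groups, with a root mean square difference of 0.042 on the log2 scale. Nog was at 7.67, 7.37 and 7.44 on the control arrays and 8.08, 8.05 and 8.08 on the TGF-β1 arrays. Its difference was 0.58, with an adjusted p of 0.063 in limma. Itprip, which encodes a protein that interacts with the inositol trisphosphate receptor, came next at 0.047, with a difference of 0.57 (adjusted p 0.047). Ski, a co-repressor that binds Smad proteins, followed at 0.054, with a difference of 0.45 (adjusted p 0.088).

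Related basic leucine zipper factors were mixed. Of 13 such factors 10 were tested, with a median of -0.10. Batf3 passed the adjusted threshold as higher, Maf passed as lower and 8 did not pass. Over all genes 1.63% passed as higher and 0.404% as lower. Batf3, a relative of Batf, was at 4.79, 4.53 and 4.89 on the control arrays and 5.54, 5.48 and 5.41 on the TGF-β1 arrays, a difference of 0.74 (SE 0.13, adjusted p 0.044). Maf, the large relative of Maff, was at 4.26, 4.58 and 4.31 on the control arrays and did not stand well above background in any of the TGF-β1 cultures, so that it was at least 1.58-fold lower (adjusted p 0.017). Maf passed the filter on dim probes through the control arrays alone, which by itself selects for a difference, so its p is not given as support. Nfe2l2, which encodes the Maf partner Nrf2, differed by -0.27 (adjusted p 0.23). Atf7, Batf2 and Nrl were not tested. Without TGF-β1 replicate 3, 1 of the 10 was called higher and 3 lower, beside 9.08% and 6.27% of all genes.

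The kinases upstream of AP-1 held no call. Of 20 MAP kinases and activators 19 were tested, none passed the adjusted threshold, and 4 were lower and none higher at an unadjusted p under 0.05 (limma), beside 10.8% and 11.4% of all genes. Their median was -0.0060, near the -0.03 of all genes. The smallest p belonged to Mef2d, a factor that MAP kinases activate, with a difference of -0.48 (adjusted p 0.17), to the p38 kinase kinase Map2k6 with -0.49 (adjusted p 0.17), and to Mapk3, the kinase ERK1, with -0.46 (adjusted p 0.19). Mapk10, the kinase JNK3, was not tested. Without TGF-β1 replicate 3 there was no call either.

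Of 15 phosphatases and inhibitors that restrain MAP kinases, 14 were tested, with a median of 0.019. At the adjusted threshold 1 was called higher and 1 lower, beside 1.63% and 0.404% of all genes. Dusp6, a phosphatase for ERK kinases, was at 9.93, 10.18 and 10.10 on the control arrays and 10.96, 10.86 and 10.61 on the TGF-β1 arrays. Its difference was 0.74 (SE 0.13, adjusted p 0.048). Dusp10, a phosphatase for the p38 and JNK kinases, was at 8.90, 9.04 and 8.98 on the control arrays and 8.27, 8.49 and 8.28 on the TGF-β1 arrays, a difference of -0.63 (SE 0.11, adjusted p 0.047). Both phosphatases were apart between the groups on every array. Spred2, an inhibitor of ERK signalling, differed by 0.77 (adjusted p 0.093). Spry4 was not tested. Without TGF-β1 replicate 3, 2 of the 14 were called higher and 2 lower, where 9.08% and 6.27% of all genes were.

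Of 22 other immediate early genes 21 were tested, with a median of 0.010. Ccn2 and Ccn1 passed the adjusted threshold as higher and none passed as lower, beside 1.63% and 0.404% of all genes. Both encode secreted matricellular proteins, and Ccn2 is a well-known TGF-β target. Ccn2 was at 14.15, 14.56 and 14.25 on the control arrays and 16.66, 16.67 and 15.93 on the TGF-β1 arrays, a difference of 2.10 (SE 0.23, adjusted p 0.011). Ccn1 differed by 1.53 (SE 0.24, adjusted p 0.032). Zfp36l1, which encodes a protein that destabilizes mRNA, differed by 0.49 (adjusted p 0.061). At an unadjusted p under 0.05, 6 of the 21 were higher and 3 lower, beside 11.4% and 10.8% of all genes. The largest fall was that of Klf2, named after its value was seen, at -1.25 (adjusted limma p 0.089). Without TGF-β1 replicate 3, 5 passed the adjusted threshold as higher and 1 as lower, beside 9.08% and 6.27% of all genes. Egr3 was not tested.

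Of 26 genes known as AP-1 targets in other systems 22 were tested. At the adjusted threshold 4 were called higher and none lower, beside 1.63% and 0.404% of all genes. At an unadjusted p under 0.05 (limma) 11 were higher and 1 lower, beside 11.4% and 10.8% of all genes. The median of the 22 was 0.73, against -0.03 over all genes. The list was written with results of these cultures known and is not independent evidence of a direction. The proteases Mmp13, Mmp10 and Mmp12 and the secreted phosphoprotein Spp1 rose. Mmp13, a collagenase, was at 4.46, 4.54 and 4.99 on the control arrays and 9.74, 8.61 and 9.68 on the TGF-β1 arrays, a difference of 4.68 (SE 0.32, adjusted p 0.0025). Mmp10 differed by 4.47 (SE 0.27, adjusted p 0.0016), Mmp12, above background on 2 of 3 control arrays, by 3.82 (SE 0.54, adjusted p 0.022), and Spp1 by 3.01 (SE 0.43, adjusted p 0.023). Mmp3, Mmp9, Il6 and Sprr1b were not tested. The fibroblast collagen genes Col1a1 and Col1a2 were at least 2.59-fold (adjusted p 0.0091) and 2.38-fold (adjusted p 0.016) higher on the same arrays. Both passed the filter through the TGF-β1 arrays alone, so these p-values are not given as support, and the part of these genes in the values of the targets was not tested. Without TGF-β1 replicate 3, 11 of the 22 were called higher and 1 lower, beside 9.08% and 6.27% of all genes.

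**Figure D4:**
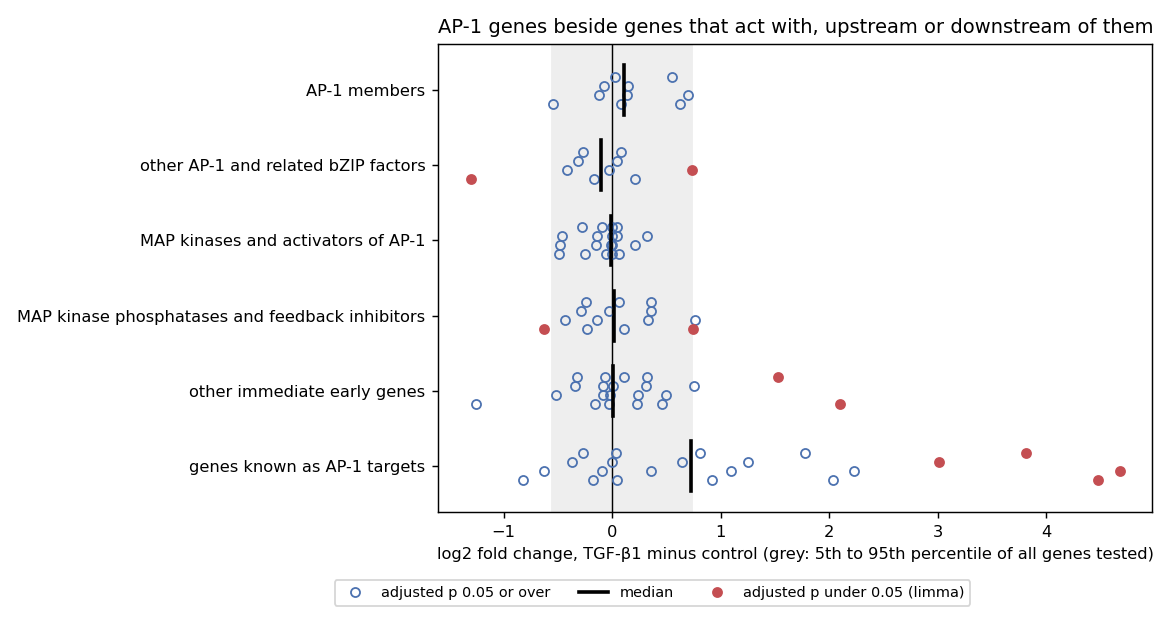
Log2 fold change (TGF-β1 minus control, x axis) of the 10 AP-1 genes and of the tested genes of 5 related lists, 1 point a gene, with the median of each list (black line). Filled red points passed an adjusted p of 0.05 in limma, and the grey band holds the 5th to 95th percentile of all genes tested. No AP-1 gene is filled, the 4 filled targets lie beyond 3 on the axis, and Maf, the point farthest to the left, is drawn at its measured difference.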

How the data were processed

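RNA of 6 cultures, 3 per group as the labels give them, was hybridized to 1 Agilent SurePrint G3 mouse array each with the dye Cy3. The authors deposited linear spot intensity from Agilent Feature Extraction 11.0.1.1, a version the submitters' processing notes name, after background subtraction and detrending, and normalized it by quantiles afterwards. Control spots and outliers were left out here. Of 35883 probes with a RefSeq accession, 32991 received a gene symbol, through GRCm38.p6. Log2 intensity was quantile-normalized, and the 32460 probes that stood well above background on 3 or more arrays were kept. A gene was its probe of highest mean signal. Groups were compared with limma 3.58.1 in R 4.3.3 over 14345 genes with Benjamini-Hochberg adjustment, and the script was tested on simulated data. Single genes were also given an exact permutation test.

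The AP-1 genes, the lists and the alternatives were chosen with earlier results of these data known. The text names all 10 AP-1 genes, the genes of each list with an adjusted p under 0.05 or, below 3 such genes, the smallest p up to 3, and the 3 genes most like the AP-1 gene of smallest p. Markers served as a check of the cells. A bound was computed against the level at which probes become well above background. The number of arrays limits the precision. The alternatives were 75th percentile scaling, normexp background (offset 50, on median spot intensity), the mean of probes, no filter, a filter on all 6 arrays, trend and robust fitting, array weights, the methods' t-test (unadjusted and adjusted), other thresholds, blocks for replicate number and slide row, and each array left out.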

Additional observations from a re-analysis of the deposited data

How the results depend on the processing

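The count of AP-1 genes called higher, 0 in the report, was 1 with normexp background (Junb, adjusted p 0.041), 1 with trend and robust fitting (Junb, 0.021), 1 with slide row as a block (Fosb, 0.048), 2 by the methods' t-test without adjustment (Fosb, Junb, beside 1305 of all 14345 genes higher and 1147 lower), 3 at an unadjusted limma p (Fosb, Jun, Junb), 3 with array weights (the same genes, at 0.019, 0.013 and 0.012) and between 0 and 2 with 1 array left out (2 without TGF-β1 replicate 3). The count called lower, also 0, was 1 at an unadjusted p and 1 with array weights, Fosl1 in both cases. Both counts were 0 under the other alternatives, and with 1 array left out the count lower was 0 throughout. The labels do not say whether same-numbered cultures were paired, and 3 arrays per group are too few to settle it. Deviations of same-numbered cultures correlated at -0.0077, 0.33 and -0.047, and not every culture correlated best with its own number. With the number as a replicate block, 0 AP-1 genes were called higher and 0 lower, and over all genes 86 and 18 in place of 234 and 58. Over all genes, calls were 399 and 108 with trend and robust fitting, 347 and 83 with normexp, 290 and 105 with slide row as a block, 59 and 15 without a filter, 7 and 2 by the adjusted t-test, 171 and 27 with a 2-fold minimum, 2408 and 2575 with array weights, and 1302 and 900 without TGF-β1 replicate 3, where 59.1% of calls were higher in place of 80.1%. Of the values of single AP-1 genes, 11 changed sign, in Atf3, Batf, Fos, Fosl2 and Maff. Leaving out 1 array gave -0.29 to 0.083 for Atf3 (0.083 when control replicate 1 and 0.056 when TGF-β1 replicate 3 was dropped), -0.093 to 0.28 for Batf, -0.071 to 0.12 for Fos (-0.066 when control replicate 3 and -0.071 when TGF-β1 replicate 1 was dropped) and -0.00076 to 0.24 for Maff. Array weights gave -0.015 for Batf and -0.049 for Maff, 75th percentile scaling -0.12 for Fosl2 and -0.0037 for Maff, and the mean of probes -0.13 for Fosl2. Fosb, Jun, Junb, Fosl1 and Jund kept their sign under every alternative run. The causes were not tested.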
